A study of Mus musculus with 2 samples.

Results

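The genes described here are 8 integrin subunits (Itga4, Itga5, Itga6, Itgal, Itgam, Itgb1, Itgb2 and Itgb7) and the main partners of their cytoplasmic tails in blood cells, talin (Tln1) and kindlin-3 (Fermt3). They were chosen by symbol, and all 10 were found among the 43346 genes of the deposited tables. The measurements are total RNA-seq of G1E, an immortalized erythroid progenitor line of Mus musculus labelled as male, postnatal (age 0 day), C57BL/6J and Gata1-, so both libraries share the alteration of Gata1, the gene of the transcription factor that drives erythroid maturation. Libraries were made from 100 ng of RNA depleted of ribosomal RNA. There was 1 group of 2 biological replicates with no treatment and no control line, and the labels do not say which part of Gata1 was altered. Gata1 RNA was present in both libraries, with 1862 and 1922 expected counts in replicates 1 and 2, which checks nothing about the label while the altered stretch is unknown. Total expected counts on genes were 58094631 and 55274368. Since the labels give no second condition, the comparisons are between genes of the line and between its libraries. With 2 libraries the smallest two-sided exact sign-test p is 0.5, so no p-value is given and differences are read against the spread between replicates.

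Integrins are adhesion receptors made of an alpha and a beta chain, and the pairing decides which ligand is bound. On blood cells the chain encoded by Itgb1 pairs with the products of Itga4, Itga5 and Itga6, which bind VCAM1 and fibronectin, fibronectin, and laminin. The product of Itgb2 pairs with those of Itgal and Itgam, the integrins of leukocyte contact with ICAM proteins and complement, and that of Itgb7 pairs with the product of Itga4 or Itgae. Talin and kindlin-3 each bind the beta tail and together switch the receptor to its binding form. In bone marrow, erythroid progenitors hold to macrophages and fibronectin through these receptors.

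The places where talin and kindlin act can be seen in the coding sequence of the 3 beta chains. The last 40 codons before the stop codon are shown for the complete coding transcript of each, from GENCODE release M21 (mm10), 5′ to 3′ on the coding strand. Capitals mark the codons for asparagine, proline, any residue and then tyrosine or phenylalanine, the motif of integrin tails that talin binds at its first copy and kindlin at its second. The search was in frame on the coding strand. With the introns between, the stretches span chr8:128726130-128732085 (plus strand) in Itgb1, chr10:77564745-77565237 (plus) in Itgb2 and chr15:102216163-102216486 (minus) in Itgb7.
Itgb1: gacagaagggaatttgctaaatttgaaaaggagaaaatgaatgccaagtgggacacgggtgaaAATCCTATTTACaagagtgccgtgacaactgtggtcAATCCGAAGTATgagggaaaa
Itgb2: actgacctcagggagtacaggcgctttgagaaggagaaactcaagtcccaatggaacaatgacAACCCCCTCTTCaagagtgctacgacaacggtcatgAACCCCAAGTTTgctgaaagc
Itgb7: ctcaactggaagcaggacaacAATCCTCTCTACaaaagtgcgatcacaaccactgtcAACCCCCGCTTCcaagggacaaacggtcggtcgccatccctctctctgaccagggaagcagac
Each tail held 2 matches. They began at codons 22 and 34 of the 40 in Itgb1 and Itgb2, and at codons 8 and 20 in Itgb7, whose chain runs on further after the second match. Over 21645 genes with a complete coding transcript, 0.679% had a match in their last 40 codons, and 4 genes had 2 or more: Itgb1, Itgb2, Itgb7 and the phosphatase gene Ptprb. A match describes letters and not a bound protein. The search required proline at the second place, so tail sites spelled otherwise were not counted. The count therefore does not show that other beta chains lack a site for talin or kindlin.

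In G1E the integrin RNA was that of few subunits. Levels are in TPM, a relative abundance of transcripts after division by effective length, which makes genes of different length comparable. A gene counted as detected at 1 TPM or more in both libraries. Of the 10 genes 6 were detected: Itgb1, Fermt3, Tln1, Itga4, Itgb2 and Itgb7. That is 60% of them, beside 38.7% of nuclear protein-coding genes. The median of the members' mean TPM was 6.21 ± 0.212 (SD of the library medians, n = 2), beside 0.055 over all nuclear protein-coding genes. The undetected members were Itgal, Itga6, Itgam and Itga5, all alpha chains.

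**Figure D1:**
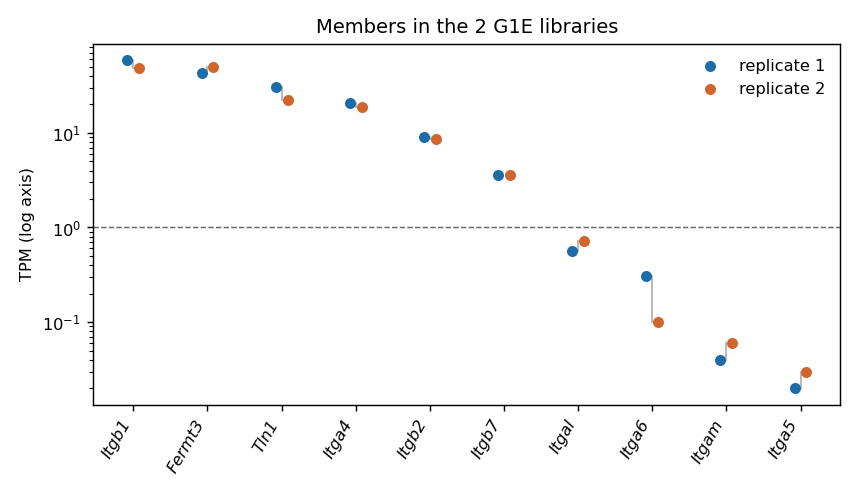
TPM of the 10 genes (log axis) in replicates 1 and 2 of G1E, in order of their mean; the dashed line is 1 TPM. Itgb1, Fermt3, Tln1, Itga4, Itgb2 and Itgb7 lie above the line in both libraries, and the 4 alpha chains Itgal, Itga6, Itgam and Itga5 lie below it.

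Among the 5 member alpha chains Itga4 alone was above the threshold. Itga4 (ENSMUSG00000027009.14, chromosome 2, 79255426 to 79333123, plus strand, mm10) held 27312 and 24266 counts. Its level was 20.62 TPM in replicate 1 and 18.87 in replicate 2, a mean of 19.7 ± 1.24 (SD, n = 2), above 92.7% of nuclear protein-coding genes. Both libraries were within a narrow band, and no other member alpha chain came near it.

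Itga5, the classical fibronectin receptor chain (chromosome 15, 103344286 to 103366763, minus strand), held 13 and 20 counts, or 0.02 and 0.03 TPM. A count of 0 would allow up to 3 counts, so Itga5 RNA was above that limit in both libraries and yet the lowest of all 10 genes. Itga6, the laminin receptor chain (chromosome 2, 71745616 to 71858416, plus strand), held 74 and 52 counts, or 0.31 and 0.10 TPM. Itga4 exceeded Itga5 by a log2 ratio of 7.43 and 7.19 in replicates 1 and 2 and Itga6 by 5.66 and 6.57, on the scale of log2(TPM + 0.1). The limit for such a pair was 0.68, which is 2 SD of a ratio in 1 library (the pooled SD of log2 TPM between replicates was 0.24 from 10 to 100 TPM), and a pair was called apart where both libraries passed it with the same sign. Itga5 over Itga6 gave -1.77 and -0.62 against a limit of 0.58, a call that was lost with a pseudocount of 1. It also compares whole genes, and 88.6% and 72.4% of Itga6 lay outside complete coding transcripts. Those transcripts stood at 0.04 and 0.03 TPM for Itga6, beside 0.02 and 0.03 for Itga5. Itgb1 exceeded Itga5 by 8.93 and 8.54 and Itga6 by 7.16 and 7.91. For genes near 0 the size of such ratios depends on the pseudocount.

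The leukocyte alpha chains were low as well. Itgal, the alpha chain of the lymphocyte integrin LFA-1 (chromosome 7, 127296260 to 127335138, plus strand), held 444 and 519 counts, or 0.57 and 0.72 TPM. The authors' interval for its TPM ended at 0.636 in replicate 1 and 0.784 in replicate 2, so it stayed under the threshold on both. Nuclear protein-coding genes held 18.05% and 16.97% of all TPM in replicates 1 and 2. With TPM rescaled to those genes, Itgal stood at 3.16 and 4.24, above 1 TPM, so its call depends on that scale. Its mean TPM lay above 58.7% of nuclear protein-coding genes. Itgam, the chain known as CD11b of granulocytes and macrophages (chromosome 7, 128062640 to 128118491, plus strand), held 26 and 40 counts, or 0.04 and 0.06 TPM. Itgal exceeded Itgam by log2 ratios of 2.26 and 2.36 against a limit of 0.58. In bulk RNA, few cells with much of a transcript and many cells with little of it cannot be told apart, and this holds for each of these low chains.

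Itgam also shows how the estimate matters at so few reads. The posterior mean was 0.16 TPM in both libraries, and the authors' interval spanned 0.0556 to 0.289 in replicate 1 and 0.0698 to 0.277 in replicate 2, so the deposited TPM lay under its own interval. The gene has 9 transcripts in the tables, of which 2 belong to Gm49368 in release M21, and 3450 exonic bases are common to both.

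The beta chains were detected as a set of 3 at well separated levels. Itgb1 (ENSMUSG00000025809.11, chromosome 8, 128685654 to 128733200, plus strand), the common beta chain of matrix receptors, held 33902 and 28771 counts. Its level was 58.46 and 48.13 TPM, a mean of 53.3 ± 7.30 (SD, n = 2), the highest of the 10 genes and above 97.7% of nuclear protein-coding genes. Itgb2 (ENSMUSG00000000290.9, chromosome 10, 77530252 to 77565708, plus strand), the leukocyte beta chain known as CD18, held 3670 and 3490 counts and stood at 9.12 and 8.54 TPM, a mean of 8.83 ± 0.410. Itgb7 (ENSMUSG00000001281.5, chromosome 15, 102215995 to 102231944, minus strand), the beta chain of gut-homing lymphocytes, held 1482 and 1440 counts and stood at 3.60 and 3.58 TPM, a mean of 3.59 ± 0.0141. Their order was the same in both libraries and no values overlapped. Itgb1 exceeded Itgb2 by log2 ratios of 2.67 and 2.48 and Itgb7 by 3.98 and 3.71, against a limit of 0.68. Itgb2 exceeded Itgb7 by 1.32 and 1.23, against 0.58.

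Set against their partners, the chains were unequal. Itgb1 exceeded Itga4 by log2 ratios of 1.50 and 1.35, a mean 2.68-fold, and this call was lost when counts were compared without length, at a mean log2 of 0.28. Itga4 stood above Itgb7, its other partner, with log2 ratios of Itgb7 over Itga4 of -2.49 and -2.37. Of the 3 beta chains, Itgb2 had the least RNA of alpha partners. It exceeded Itgal by 3.78 and 3.40 and Itgam by 6.04 and 5.75. The 4 alpha chains that can pair with the product of Itgb2 (Itgal, Itgam, Itgax and Itgad) summed to 0.68 and 0.83 TPM, while Itgb2 itself stood at 9.12 and 8.54. RNA levels do not give the amounts of protein or of assembled receptor.

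Of all 26 integrin genes 7 were detected, or 26.9% beside 38.7% of nuclear protein-coding genes: Itga4, Itgb1, Itgb2, Itgb7, and outside the members Itga2b, Itgav and Itgb3. Itga2b, the alpha chain of the platelet fibrinogen receptor, stood at 13.42 and 13.24 TPM. Itgb3, its beta partner, stood at 3.57 and 2.72, and Itgav, which also pairs with it, at 3.35 and 3.06. Itga4 held 52.7% ± 0.788 of the summed TPM of all 18 alpha chains, Itga2b 35.6% ± 1.36 and Itgav 8.55% ± 0.139 (SD, n = 2). Itgb1 held 77.2% ± 1.17 of the summed TPM of the 8 beta chains, Itgb2 12.9% ± 0.974, Itgb7 5.24% ± 0.619 and Itgb3 4.54% ± 0.317. The other 19 subunits together came to 1.58 and 1.14 TPM. Outside the members Itga8 stood at 0.18 and 0.01 TPM from 14 and 5 counts. Among the rest was Itgae, the second partner of Itgb7, at 0.01 TPM in both libraries from 8 and 9 counts. Itga11, a collagen receptor chain, had 0 counts in both libraries.

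**Figure D2:**
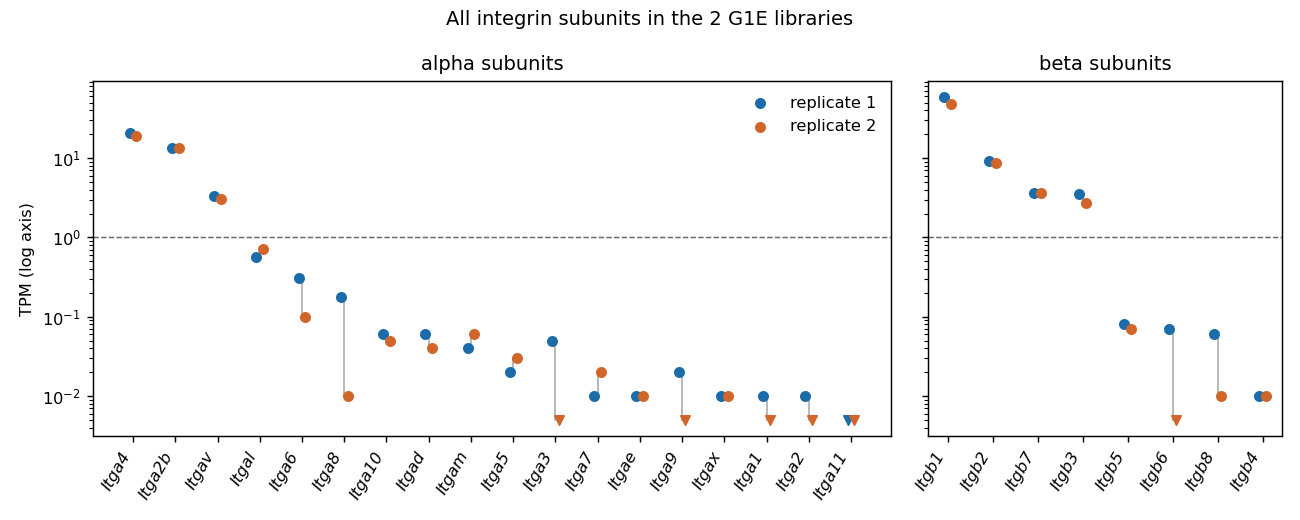
TPM (log axis) of the 18 alpha and 8 beta integrin subunits in both G1E libraries, each panel in order of the mean; the dashed line is 1 TPM and downward triangles mark values listed at 0, drawn at 0.005. Itga4, Itga2b and Itgav among the alpha chains and Itgb1, Itgb2, Itgb7 and Itgb3 among the beta chains lie above the line.

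The intracellular partners were high and each was carried by 1 paralog. Fermt3 (ENSMUSG00000024965.8, chromosome 19, 6998958 to 7019469, minus strand), kindlin-3, the kindlin of blood cells, held 17206 and 20473 counts. Its level was 42.92 and 50.19 TPM, a mean of 46.6 ± 5.14 (SD, n = 2), above 97.3% of nuclear protein-coding genes. Its paralogs of epithelia and other tissues were near 0, with Fermt1 at 0.01 and 0 TPM from 7 and 2 counts and Fermt2 at 0.03 TPM in both libraries from 3 and 18. Fermt3 exceeded Fermt1 by log2 ratios of 8.61 and 8.97 and Fermt2 by 8.37 and 8.60 on the log2(TPM + 0.1) scale.

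Tln1 (ENSMUSG00000028465.12, chromosome 4, 43531519 to 43562691, minus strand), talin, which ties beta tails to actin, held 31338 and 28778 counts. Its level was 30.71 and 22.06 TPM, a mean of 26.4 ± 6.12, above 94.7% of nuclear protein-coding genes. Tln2, the other talin gene, stood at 0.24 and 0.15 TPM from 412 and 303 counts. Tln1 exceeded it by log2 ratios of 6.50 and 6.47, against a limit of 0.68.

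In the order of levels, compared after the levels were seen, not all neighbours were apart. Itgb1 stood above Fermt3 in replicate 1 by a log2 ratio of 0.44 and just below it in replicate 2, at -0.060. Tln1 against Fermt3 gave -0.48 and -1.18, so the limit of 0.68 was passed in replicate 2 and not in replicate 1. That call rests in part on a short incomplete transcript, Tln1-206, described below. Without it Tln1 stood at 23.77 and 22.06 TPM, beside 42.92 and 50.19 for Fermt3. On those levels, taken after values were seen, Tln1 lay below Fermt3 by more than the limit of 0.68 in both libraries. Counts without length turned the ratio of Tln1 over Fermt3 to a mean of 0.68, as Tln1 transcripts are longer. Tln1 over Itga4 gave 0.57 and 0.22, under the limit in both. From Itga4 down to Itga6 each gene was apart from the next, over Itgb2, Itgb7 and Itgal. The call of Itgal over Itga6 was lost with a pseudocount of 1, at a mean log2 of 0.45, and with posterior mean TPM, at 1.09. Itga6 over Itgam (1.55 and 0.32) and Itgam over Itga5 (0.22 and 0.30) were not apart, calls that other settings changed. For genes under 1 TPM the replicate spread was borrowed from genes of 1 to 10 TPM. A set of 17 pairs of members and paralogs was also compared, and 16 were apart. The exception was Tln1 and Fermt3, which depends on counting Tln1-206 in the level of Tln1. Itgb2 with Itgb7 and Tln1 with Fermt3 are in both sets. Many of the pairs put a detected gene against one near 0 TPM. No share of pairs apart was taken over all genes, so the count is not a result about these genes.

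Transcript estimates showed where these genes differed in form. The tables hold 48 transcripts of the 10 genes, and Itga5 and Fermt3 have 1 each. Of the 8 genes with more, 5 had the same leading transcript in both libraries, and the other 3 were the low genes Itga6, Itgal and Itgam. By posterior mean shares Itgam also kept 1 leader. The share of all genes that kept their leader was not taken, so these counts are not a result about these genes. Itgb1-201, a complete coding transcript of 3815 nt, held 94.7% and 96.3% of Itgb1. Itgb7-201, of 2674 nt, held 99.1% and 94.8% of Itgb7. Both genes were thus carried by 1 coding transcript in each library.

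Itga4 had more of its abundance outside the coding form. Itga4-201, the complete coding transcript of 9767 nt, held 77.3% and 73.3% of Itga4, and the remaining 22.7% and 26.7% lay in 4 shorter transcripts without a coding frame. The levels of the coding form alone were 15.94 and 13.84 TPM.

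Itgb2 had a form that cannot give the full chain. Itgb2-201, complete and coding, held 68.9% of Itgb2 in replicate 1 and 53.7% in replicate 2, or 6.28 and 4.59 TPM. Itgb2-204, annotated as a target of nonsense-mediated decay, the pathway that removes mRNAs with an early stop codon, held 13.3% and 31.7%, or 1.22 and 2.71 TPM. The authors' intervals for Itgb2-204, 0.493 to 1.89 TPM and 2.22 to 3.23 TPM, did not overlap between the libraries. Nor did those for Itgb2-201, 5.58 to 6.87 TPM and 4.07 to 4.96 TPM. Both transcripts were singled out after their values were seen. Per library, 493.8 and 1120.05 expected counts were assigned to Itgb2-204.

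Itgb2-204 differs from Itgb2-201 inside the gene by 1 exon, number 12 of 16, at chr10:77559479-77559723 on the plus strand (mm10). It is 245 nt long, which leaves a remainder of 2 when divided by 3, so leaving it out shifts the reading frame. The coding stretch shrinks from 2310 to 1440 nt, and the stop follows 28 nt into exon 13. The full lengths, 2970 nt for Itgb2-201 and 2619 nt for Itgb2-204, lie further apart than exon 12 is long, so the ends differ as well. Inside the gene the forms differ in exon 12 and in the junctions around it. These are shown with 15 bases on each side, exon 12 in capitals.
Exon 11 to exon 12: gtgtggtatctgcagGTGTGAGTCTGGCTA
Exon 12 to exon 13: TCTGCGGTGGCTCAGatcggggttcctgca
Exon 11 to exon 13: gtgtggtatctgcagatcggggttcctgca
The first and second lines belong to Itgb2-201 and the third to Itgb2-204. Exon 12 itself reads as follows.
Exon 12: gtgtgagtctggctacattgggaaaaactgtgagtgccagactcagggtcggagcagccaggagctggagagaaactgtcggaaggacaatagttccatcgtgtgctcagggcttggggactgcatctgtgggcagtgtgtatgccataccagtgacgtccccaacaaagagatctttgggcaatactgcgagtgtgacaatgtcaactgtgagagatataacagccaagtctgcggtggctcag
Most bases of both transcripts are shared, and the deposited tables do not say how many reads crossed each junction.

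Tln1 differed between the libraries in a short transcript. Tln1-201, the complete coding form of 8393 nt and 57 exons, stood at 21.95 and 20.41 TPM. Tln1-206, of 836 nt, is an incomplete coding transcript. It has a first exon of its own at chromosome 4, 43558381 to 43558460, and 6 further exons that overlap those of Tln1-201. Singled out after its values were seen, it was given 730.79 counts and 6.94 TPM in replicate 1 and 0 of both in replicate 2. The authors' interval ran from 5.40 to 8.08 TPM in replicate 1 and ended at 0.134 in replicate 2. Without Tln1-206 the level of Tln1 was 23.77 and 22.06 TPM, and the log2 difference between the libraries went from -0.48 to -0.11.

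**Figure D3:**
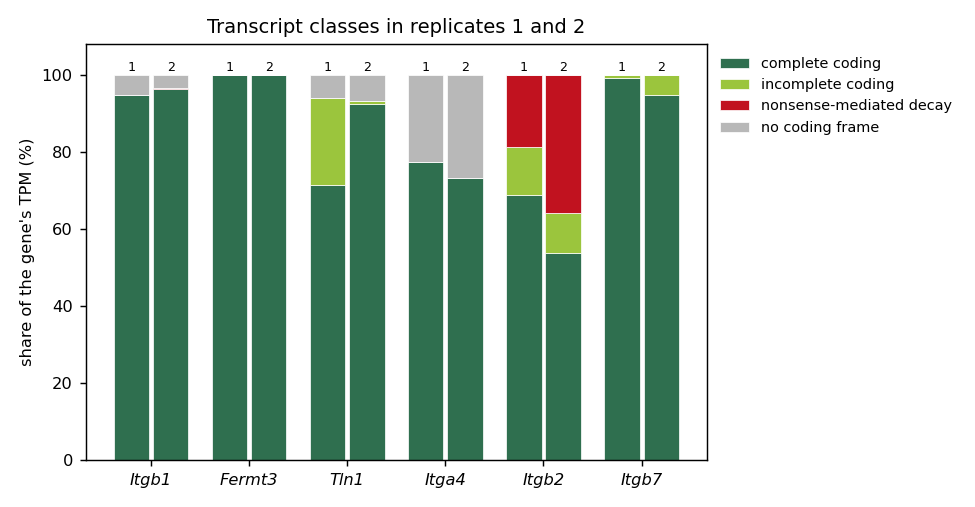
Share of each gene's TPM (%) in complete coding transcripts, incomplete coding transcripts, targets of nonsense-mediated decay and transcripts without a coding frame, for the 6 detected genes; the left and right bar of each pair are replicates 1 and 2. Complete coding transcripts held 68.9% and 53.7% of Itgb2 and 71.5% and 92.5% of Tln1, and all of Fermt3.

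Between the libraries the detected genes differed little in counts. With counts scaled by library size, none of the 10 genes differed by 2-fold or more, and 22.3% of all tested genes did. The share was 16.8% of nuclear protein-coding genes and 0.238% of those with at least 1000 counts, the range in which the 6 detected genes lie. Fermt3 had the largest difference among these 6, a log2 of 0.41 for replicate 2 over replicate 1 with a 95% exact counting interval from 0.38 to 0.44. Itgb1 gave -0.07 (-0.10 to -0.05), Itga4 -0.01 (-0.03 to 0.02), Tln1 0.04 (0.02 to 0.06), Itgb2 0.09 (0.02 to 0.16) and Itgb7 0.12 (0.02 to 0.23). Intervals cover only the counting error of rounded expected counts, not the assignment of reads to genes, and they compare 2 libraries and not conditions. Reads carry no molecular identifiers, so copies of a molecule count as separate reads and the intervals can be too narrow.

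The low genes were less certain. Itgal gave 0.39 (0.20 to 0.57), Itgam 0.78 (0.04 to 1.56), Itga5 0.78 (-0.29 to 1.91) and Itga6 -0.35 (-0.89 to 0.19). In TPM, Itga6 passed 2-fold, at a log2 of -1.63, where 14.6% of all genes did. Its effective length was 1398 nt in replicate 1 and 2949 nt in replicate 2, with the leading transcript going from Itga6-205 to Itga6-203. Over all detected genes the median log2 TPM difference, replicate 2 minus replicate 1, was -0.14, and TPM differences of single genes include that shift.

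**Figure D4:**
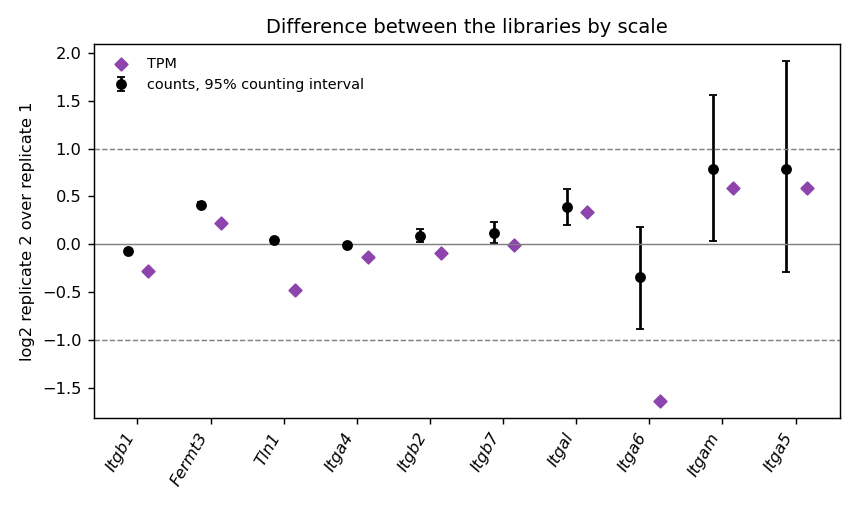
Log2 of replicate 2 over replicate 1 for the 10 genes, from scaled counts (black, with 95% exact counting intervals) and from TPM (purple diamonds); dashed lines mark 2-fold. The scales part most at Itga6, at -0.35 in counts and -1.63 in TPM, and at Tln1, at 0.04 and -0.48.

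Overlapping genes limit 3 of the high members. Tln1 shares 360 exonic bases with Creb3 on the opposite strand, which held 1691 and 1393 counts. Itga4 shares 1124 with Cerkl (100 and 50 counts) and Fermt3 shares 89 with Trpt1 (35 and 54 counts). No source used here states whether counting used strand, so reads in these stretches are uncertain. The partners' totals were small beside the 31338, 27312 and 17206 counts of Tln1, Itga4 and Fermt3 in replicate 1.

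Regulators upstream of talin and kindlin are given beside the 38.7% of nuclear protein-coding genes that were detected. Of 13 other activators 7 were detected, or 53.8%, with a list median of 1.33 ± 0.0141 TPM. Skap2, an adaptor of integrin activation, led at 26.8 ± 2.33 TPM, followed by its partner Fyb at 21.1 ± 1.80 and the small GTPase genes Rap1a at 18.5 ± 2.09 and Rap1b at 15.5 ± 3.03. Apbb1ip, which encodes RIAM, the link from RAP1 to talin, stood at 2.52 and 1.98 TPM. Rasgrp2, the RAP1 exchange factor of platelets, was under the threshold at 0.27 and 0.64 TPM, and Fermt1 was the lowest. Of 6 inhibitors 5 were detected, or 83.3%, with a median of 6.08 ± 0.0530 TPM. Filamin A (Flna), which competes with talin for beta tails, stood at 32.3 ± 0.318 TPM, Sharpin, which holds alpha tails inactive, at 13.3 ± 0.0919, and Itgb1bp1, which encodes ICAP1, at 7.16 ± 0.0141. Dok1, another competitor for beta tails, stood at 4.91 and 5.08 TPM. The RAP1 inactivator Rap1gap had 0 counts in both libraries.

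Links from the tails to actin were detected at 38.9%, or 7 of 18 genes, near the 38.7% of nuclear protein-coding genes, with a median of 0.15 ± 0.0354 TPM. Ilk, the scaffold kinase-like protein, stood at 21.14 and 25.17 TPM, Lims1, which encodes PINCH1, at 11.99 and 10.32, and Rsu1, which binds PINCH, at 10.10 and 10.20. All 3 parvin genes were low: Parva had 10 and 13 counts, Parvb 1 and 1, and Parvg 1 and 7, none above 0.02 TPM. The posterior means were higher, at 0.10 TPM for Parva in both libraries, 0.09 and 0.08 for Parvb and 0.20 and 0.19 for Parvg. Vinculin (Vcl), which reinforces talin, stood at 6.21 ± 0.495 TPM, and paxillin (Pxn) at 2.73 and 2.08.

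Kinases and adaptors downstream of integrins passed the threshold in 11 of 17 cases, or 64.7% beside 38.7% of nuclear protein-coding genes, at a median of 3.35 ± 0.502 TPM. Vav1, an exchange factor of blood cells, led at 31.6 ± 1.15 TPM, followed by the Src family kinase Fyn at 22.6 ± 1.17, the scaffold Git2 at 17.0 ± 0.516 and the Src family kinase Lyn at 11.1 ± 1.03. Both focal adhesion kinases were detected, Ptk2b at 9.97 and 9.84 TPM and Ptk2 at 6.53 and 5.62. Fgr, a Src family kinase of myeloid cells, had 4 and 0 counts. Syk stood at 0.04 and 0.01 TPM.

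Of 18 ligand genes 5 passed the threshold, or 27.8% beside 38.7% of nuclear protein-coding genes, and the list median was 0.0225 ± 0.0106 TPM. Icam2, a ligand of the integrin of Itgal, stood at 8.63 ± 1.04 TPM, the laminin chains Lama5 and Lamc1 at 4.56 ± 0.184 and 4.16 ± 0.948, and Icam1 at 2.27 ± 0.247. Icam4, a red cell ligand, was detected at 1.44 and 1.76 TPM. Among ligands of Itga4, Vcam1 was low at 14 and 1 counts, Fn1 at 0.18 and 0.06 TPM, and Madcam1 at 1 and 0 counts. Spp1, another ligand of Itga4, had 0 counts in both libraries.

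**Figure D5:**
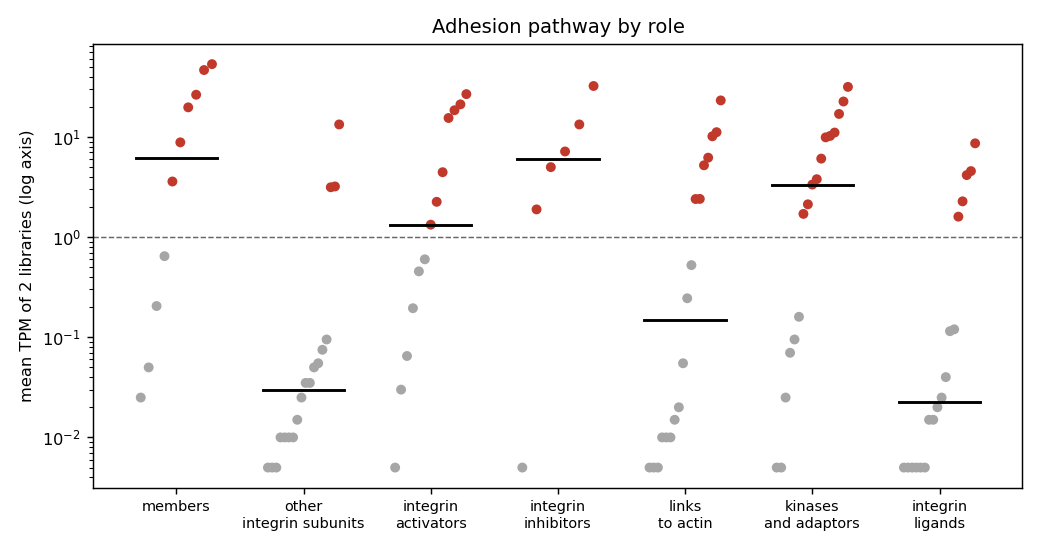
Mean TPM of 2 libraries (log axis) for the 10 genes and 6 lists of the adhesion pathway, 1 point a gene; red points were detected, black bars are list medians, the dashed line is 1 TPM, and means under 0.005 are drawn at 0.005. Detected were 6 of 10 members, 3 of 18 other integrin subunits, 7 of 13 activators, 5 of 6 inhibitors, 7 of 18 links to actin, 11 of 17 kinases and adaptors and 5 of 18 ligands.

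Markers of blood lineages stand beside the leukocyte chains. The counts detected are given beside the 38.7% of nuclear protein-coding genes that were detected. All 10 erythroid progenitor markers were detected, with Kit at 96.93 and 80.04 TPM. Of 10 granulocyte and macrophage markers 1 was detected, or 10%, which was Lyz2. Cd68 lay on both sides of the threshold, at 1.13 and 0.87 TPM. The list summed to 2.78 and 2.73 TPM, with S100a8 and Ly6g at 0 counts in both libraries. None of 7 lymphoid markers was detected, and they summed to 0.48 and 0.70 TPM. Itgb2 stood at 9.12 and 8.54 TPM. A sum of chosen markers does not give how much Itgb2 such cells would hold, so the values are not comparable. Of 6 mast cell markers 4 were detected, or 66.7%, and the list summed to 155 and 140 TPM. Cpa3 and Cma1 stood at 105 ± 11.3 and 36.2 ± 0.212 and made up most of that sum. Ms4a2 stood at 3.54 and 3.58 TPM and Tpsb2 at 2.35 and 2.67. The undetected markers were Mcpt4, at 0.14 and 0.10 TPM, and the IgE receptor chain gene Fcer1a, at 0.02 and 0.04. Of 8 megakaryocyte markers 3 were detected, or 37.5%, near the share over all nuclear protein-coding genes, and 2 of those are the integrins Itga2b and Itgb3. Fibroblast markers were not detected, in 0 of 5 cases. The part of these markers' cells in the level of Itgb2 and Itgb7 was not tested. Marker calls also depend on the scale. With TPM rescaled to nuclear protein-coding genes, Lck stood at 1.72 and 2.24, Adgre1 at 1.27 and 1.53 and Cd68 at 6.26 and 5.13. Gp1ba stood at 3.55 and 2.89 and Ppbp at 1.39 and 1.24, so all of these then passed 1 in both libraries. No share over all genes was taken on that scale.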

How the data were processed

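The authors deposited 1 gene table and 1 transcript table per library, made with the mm10 assembly and GENCODE M4 per the deposited read-me texts; no source used here names an aligner, quantifier or version. Deposited expected counts are estimated reads and need not be whole. Deposited TPM divides them by an effective length and scales to a fixed total. The authors' interval bounds of TPM were used as a score of unstated level, and the deposited percent is a transcript's share of its gene. Symbols and positions came from GENCODE M21 on the same assembly for 42462 of 43346 gene identifiers. Rows that name no gene held 20 and 37.61 counts (3.44e-05% and 6.80e-05%) and were left out. Expected counts were rounded for scaling with the TMM factors of edgeR 4.0.16 over genes with at least 10 counts in total, or with size factors of DESeq2 1.42.0, in R 4.3.3. The scaling was tested on simulated data. Ratios between genes used log2(TPM + 0.1) against the pooled replicate SD in bins of mean TPM, after the median difference was removed. Other steps used Python 3.11.15 with scipy 1.17.1 and matplotlib 3.10.9. Named genes were all members, all genes of the pairs, the 4 highest, the lowest and up to 5 undetected genes of each pathway list, and detected integrins. Other genes, the transcripts, the neighbours in level, the overlapping genes and the tail motif were picked after values were seen. Members, lists and pairs were chosen with earlier results of these data known. Whether the cultures were independent is known only from the label of biological replicates.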

Additional observations from a re-analysis of the deposited data

How the results depend on the processing

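Alternatives were thresholds of 0.5 and 5 TPM, posterior means, TPM rescaled to nuclear protein-coding genes, pseudocounts of 1 and 0.01, counts without length, other scalings and each library alone. At 5 TPM fewer listed genes were detected: 1 other integrin subunit, 4 activators, 3 inhibitors, 5 links to actin, 7 kinases and adaptors, 1 ligand and 5 members. At 0.5 TPM 7 members and 8 activators were detected. In TPM 1 member passed 2-fold between libraries, Itga6. Tln1 over Fermt3 turned to a log2 of 0.68 without length, and was -1.18 in replicate 2 alone. Itgb1 over Fermt3, compared after the levels were seen, was -0.060 without replicate 1 and 0.44 without replicate 2. The causes were not tested, apart from the lengths that the settings themselves add or remove. With a pseudocount of 1, Itga5 over Itga6 lost its call, at -0.23, and so did Itgal over Itga6, at 0.45. Itgal over Itga6 also lost it with posterior mean TPM, at 1.09. Itgb1 over Itga4 lost its call without length, at 0.28. Rescaled TPM brought Itgal to 3.16 and 4.24, and 7 members, 9 activators and 9 links to actin then passed 1 TPM. The share of nuclear protein-coding genes was not taken with rescaled TPM or at 0.5 and 5 TPM. Counts at those settings are therefore not results about these genes. Itga6 over Itgam gained the call with a pseudocount of 0.01, at 1.67, and in replicate 1 alone, at 1.55. Itgam over Itga5 gained it with a pseudocount of 0.01, without length and with posterior mean TPM, at 0.77, 0.80 and 1.06. By posterior mean shares 8 members in place of 7 had 1 leading transcript in both libraries. Leading transcripts were not compared without a library, since that needs both. No paired analysis was possible because both libraries form 1 group. Depth limits Itga5, Itga6 and Itgam, at 13 to 74 counts.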

Other observations

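The detected integrin chains outside the members also differed in form. Itga2b-201, the complete coding transcript of the platelet receptor's alpha chain, held 39.6% and 35.8% of Itga2b, or 5.32 and 4.74 TPM. Itga2b-207 and Itga2b-205, short transcripts of 623 and 427 nt without a coding frame, held 29.5% and 27.1%, and 15.1% and 17.8%. Itgb3 was carried by Itgb3-201 in full in both libraries, and Itgav-201 led Itgav with 65.9% and 70.3%. On the coding forms alone, Itga4 stood at 15.94 and 13.84 TPM and Itga2b at 5.32 and 4.74.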
